A study of Mus musculus with 6 samples.

Results

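Macrophages are long-lived phagocytes that take up dying cells and microbes in the stomach wall, and their numbers and gene programmes shift in inflamed tissue. Colony-stimulating factor 1 and its receptor Csf1r keep them alive. Interleukins 4 and 13, acting through Stat6, drive a state called alternative activation, which is marked in mice by Mrc1 and Retnla, among others. Here 10 macrophage genes of mouse gastric mucosa were followed, taken as every probe of a one-colour Agilent array whose gene name is one of them. Of these genes, 7 were general markers (Csf1r, Itgam, Mpeg1, Aif1, Cd68, Emr1 and Clec7a) and 3 belonged to alternative activation (Cd163, Mrc1 and Retnla). They were read by 16 of the 39399 probes used, 13 for the general and 3 for the alternative-activation genes, and stand for 10 of 31689 genes and unnamed transcripts.

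The A4gnt null mice lack the enzyme that adds terminal α1,4-linked N-acetylglucosamine to the mucin of gastric gland cells. One A4gnt null and one wild-type C57BL/6J mouse were profiled at each of 5, 10 and 50 weeks, as mucosa of the glandular stomach separated from its muscle, so that each genotype had 3 arrays. The labels do not describe the null allele. Values are given as scaled signal, the processed signal as a percent of the array's 75th percentile, and differences as log2, null minus wild type. At a given age only 1 mouse stands for each genotype, so differences there carry no p-value. Differences over the 3 ages were fitted with limma, with each age as a pair, and adjusted over all 17860 genes tested. The 3 null arrays lay on 1 slide and the 3 wild-type arrays on another, so slide and genotype cannot be told apart.

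The labelled tissue was checked first. All 10 gastric gland markers were well above background on all 6 arrays. Their level was not equal between genotypes at every age. They summed to 549002, 465053 and 368411% in the null arrays of 5, 10 and 50 weeks, against 528425, 505116 and 514515% in wild type. At an unadjusted limma p under 0.05, 4 were lower in null and 2 higher (12.6% and 11.0% of all genes), and 0 passed after adjustment. The A4gnt probe read 0.909, 0.897 and 0.525% in the null arrays of 5, 10 and 50 weeks, against 64.4, 91.1 and 91.2% in the wild-type arrays. As the null arrays did not rise well above background, A4gnt was at least 24.3-fold lower in null. Muscle genes varied by pair, although the muscle layer had been removed. The summed scaled signal of 6 smooth muscle markers was 1860, 3212 and 977% in the null arrays, against 521, 2223 and 3691% in the wild-type arrays of the same ages. In bulk tissue, fewer cells of a type and less RNA per cell cannot be told apart.

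The members did not move as 1 group. Clec7a, Mpeg1 and Aif1 read higher in all 3 null arrays than in any wild-type array, Csf1r, Itgam and Emr1 lay close together in both genotypes, and Cd68 was not measured above background. Among the alternative-activation genes Retnla read lower in every null array, Mrc1 read higher at 5 and 50 weeks, and Cd163 was seen on 1 array. No member passed the test of genotype, where 0 of the 8 members tested and 0.0% of all genes tested were called (limma adjusted p from 0.0922 to 0.702). The smallest limma adjusted p over all genes was 0.0922, and A4gnt itself had that value. Failing this test thus does not set the members apart from other genes. At an unadjusted limma p under 0.05 there were 4 of 8 members, 3 higher and 1 lower, where all genes gave 23.6%, with 11.0% higher and 12.6% lower. The same 4 members were those whose arrays did not overlap between genotypes, as for 23.8% of all genes, 12.5% upward and 11.3% downward. Clec7a entered the test through its null arrays alone and Retnla mainly through its wild-type arrays, so their place in these counts supports nothing. With all 6 arrays required to be well above background, 2 of 6 members, Mpeg1 and Aif1, had an unadjusted limma p under 0.05, against 25.9% of genes.

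**Figure D1:**
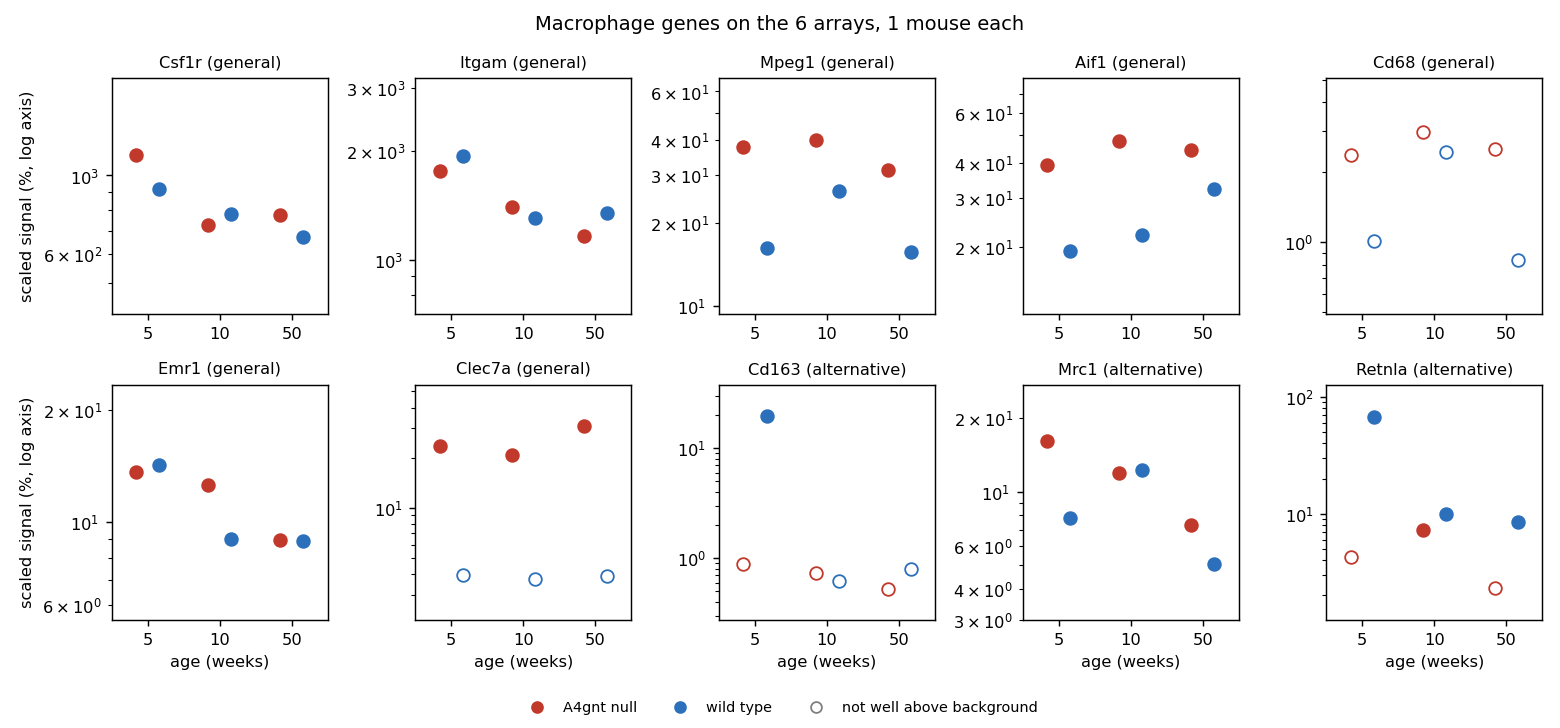
Scaled signal (percent of the array's 75th percentile, log axis) of the 10 members by age in weeks, with A4gnt null mice in red left of wild-type mice in blue and 1 array per point; open circles were not well above background. Clec7a is filled in red and open in blue at every age, while Cd163 is filled only at 5 weeks in wild type.

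Clec7a encodes dectin-1, a C-type lectin receptor for the β-glucans of fungal cell walls, carried by macrophages and also by neutrophils and dendritic cells. It read 23.5, 20.7 and 30.8% in the null arrays of 5, 10 and 50 weeks, against 3.92, 3.73 and 3.89% in the wild-type arrays. The probe was well above background on the 3 null arrays and on none of the wild-type arrays, and the groups were far apart at each age. These values make Clec7a at least 5.25-fold higher in the null mouse at 5 weeks. The bound was at least 5.53-fold at 10 weeks, and at 50 weeks at least 7.91-fold. Over the 3 ages Clec7a was at least 6.13-fold higher (limma adjusted p = 0.0922). That p is given for completeness only, since it was fitted against wild-type signal that is not well above background. Over 13 alternatives the limma adjusted p ran from 0.0214 to 0.318, and the threshold of 0.05 was passed in 3 of them. These were the fit without the age term (adjusted p = 0.0214), a variance trend (adjusted p = 0.0495) and a normexp background correction (adjusted p = 0.0382), under which 107 genes were called higher and 91 lower. It was not passed with no filter on signal (adjusted p = 0.274), nor without the 10-week (adjusted p = 0.300) or the 50-week pair (limma adjusted p = 0.318).

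Mpeg1 encodes perforin-2, a pore-forming protein of the phagosome that damages engulfed bacteria. Its brighter probe read 37.6, 39.9 and 31.1% in the null arrays, against 16.3, 26.2 and 15.7% in the wild-type arrays. The lowest null array stood above the highest wild-type array, and the gap was narrowest at 10 weeks. The mean difference was 0.93 ± 0.16 (log2, ± SE, n = 3 per genotype; limma adjusted p = 0.137). A second Mpeg1 probe was well above background on the 3 null arrays and on none of the wild-type arrays. That probe read 5.88, 5.43 and 3.75% in the null arrays, against 3.70, 1.92 and 2.78% in the wild-type arrays. The lowest signal called well above background on those wild-type arrays was 4.48, 2.99 and 3.76%. It thus gives no measured difference for Mpeg1, and a direction, higher in null, at 5 and 10 weeks only.

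Aif1 encodes Iba1, a calcium-binding protein of the actin cytoskeleton in macrophages and microglia. It read 39.3, 47.6 and 44.2% in the null arrays, against 19.4, 22.1 and 32.2% in the wild-type arrays. No wild-type array reached the lowest null array, although wild type at 50 weeks came nearest. The mean difference of Aif1 was 0.86 ± 0.18 (log2, ± SE, n = 3 per genotype; limma adjusted p = 0.144), with 1.02, 1.11 and 0.46 at 5, 10 and 50 weeks.

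Csf1r is the receptor tyrosine kinase through which macrophages receive their survival signal. Its brightest probe read 1141, 728 and 774% in the null arrays, against 919, 782 and 671% in the wild-type arrays. The genotypes overlapped, and the null array was the higher one at 5 and 50 weeks only. The difference was 0.14 ± 0.14 (log2, ± SE, n = 3 per genotype; limma adjusted p = 0.566), with a 95% interval of -0.24 to 0.52. Of the other Csf1r probes, one read 44.8 to 80.7% in null and 52.8 to 84.7% in wild type and differed by -0.03 ± 0.23 (log2, SD). The third read 6.94 to 7.49% in null and 6.60 to 7.11% in wild type and differed by 0.06 ± 0.11 (log2, SD). All 3 probes were well above background on all 6 arrays, and none of them put the genotypes apart by as much as the 2-fold used here.

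Emr1, now named Adgre1, encodes the adhesion receptor by which mouse macrophages are commonly sorted. Its brighter probe read 13.6, 12.6 and 8.94% in the null arrays, against 14.3, 9.01 and 8.92% in the wild-type arrays. The values of 5 and 50 weeks were nearly equal between genotypes, and the null array was higher at 10 weeks. The difference was 0.14 ± 0.16 (log2, ± SE, n = 3 per genotype; limma adjusted p = 0.621), with a 95% interval of -0.30 to 0.59. The second Emr1 probe pointed the other way, at -0.19 ± 0.34 (log2, SD), and was well above background on 4 of 6 arrays. The probes had the same sign at 5 and 50 weeks, with small differences, and opposite signs at 10 weeks, where the null array of the second probe was not well above background.

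Itgam encodes CD11b, the integrin chain that pairs with Itgb2 on macrophages, neutrophils and other myeloid cells. Its 3 probes are shown because the brightest one, which represents the gene by the rule used here, opens with a run of 10 CA repeats. The first 30 bases of each 60-base probe follow, with the run in capitals. In mm9, probe 1 lies at chr7:135261755-135261814, probe 2 at chr7:135260275-135260334 and probe 3 at chr7:135212140-135212199, all on the plus strand.
Itgam probe 1: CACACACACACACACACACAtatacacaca
Itgam probe 2: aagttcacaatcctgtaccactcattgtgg
Itgam probe 3: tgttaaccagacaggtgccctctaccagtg

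Itgam probe 1 read 1762, 1402 and 1161% in the null arrays, against 1939, 1309 and 1351% in the wild-type arrays. The groups overlapped, and the difference was -0.09 ± 0.13 (log2, ± SE, n = 3 per genotype; limma adjusted p = 0.702), with a 95% interval of -0.43 to 0.26. All 22 probes of the array with at least 10 CA repeats were well above background on all 6 arrays, and so were all 49 with at least 10 TG repeats. Of all 39399 probes, 49.9% were. The median scaled signal was 733% over the CA probes and 6.87% over all probes, and Itgam probe 1 was the 5 in rank of signal among the CA probes. Whether it reads Itgam alone was not tested.

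Itgam probe 2 read 7.39, 4.81 and 5.44% in the null arrays, against 6.95, 5.87 and 6.58% in the wild-type arrays. Probe 3 read 6.90, 3.32 and 2.65% in the null arrays, against 8.24, 4.18 and 3.48% in the wild-type arrays. Probe 3 was lower in null at all 3 ages and probe 2 at 10 and 50 weeks. Their differences were -0.16 ± 0.21 and -0.33 ± 0.07 (log2, SD over the 3 ages), and probe 3 was well above background on 4 of 6 arrays. With probes of CA or TG runs left out, Itgam differed by -0.16 (limma adjusted p = 0.516). Itgb2, the partner chain, read 11.5, 11.1 and 10.8% in null and 14.6, 11.9 and 8.66% in wild type.

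**Figure D2:**
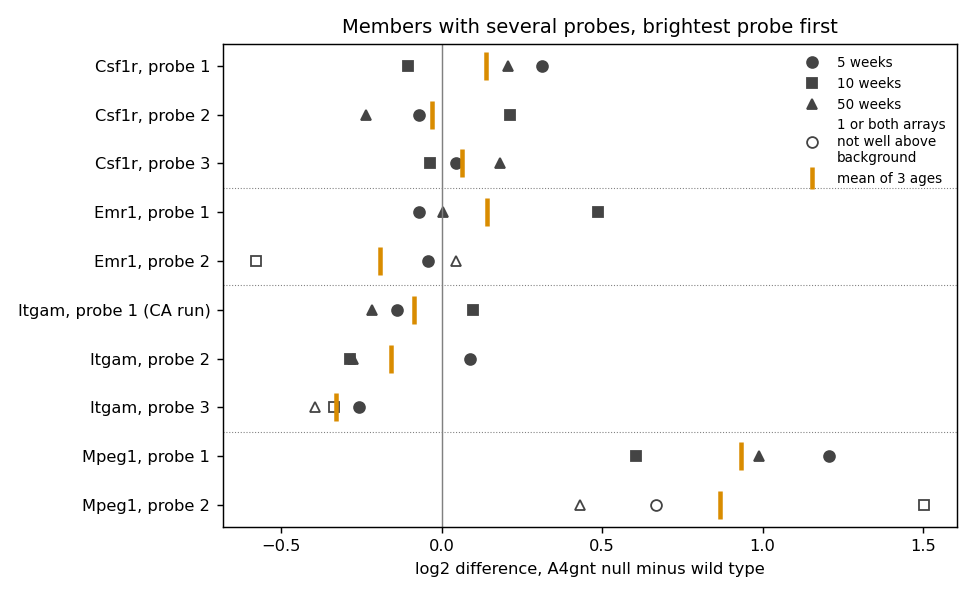
Log2 difference, A4gnt null minus wild type, of every probe of the 4 members with several probes, with 1 symbol per age and a bar at the mean of the 3 ages; open symbols had 1 or both arrays not well above background. Mpeg1 probe 1 lies above 0 at every age and Mpeg1 probe 2 has open symbols only, while the probes of Csf1r and Emr1 lie on both sides of 0 and probe 3 of Itgam lies below it.

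Cd68 encodes a lysosomal glycoprotein of macrophages. Its only probe read 2.37, 2.97 and 2.52% in the null arrays, against 1.02, 2.45 and 0.838% in the wild-type arrays, and was not well above background on any of the 6 arrays. It was not tested, and no fold is given.

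The alternative-activation members did not share a direction. Retnla, also called FIZZ1 or RELMα, is a small secreted cysteine-rich protein that macrophages make under interleukin 4 and 13, and white fat makes it as well. It read 4.22, 7.27 and 2.31% in the null arrays, against 66.8, 10.0 and 8.47% in the wild-type arrays. Each null array was below each wild-type array, but most of the distance came from the single wild-type mouse of 5 weeks. The null arrays of 5 and 50 weeks were not well above background, so that the fold is a bound there. Retnla was lower in null by at least 15.8-fold at the age of 5 weeks and by at least 3.38-fold at 50 weeks. At 10 weeks, where both arrays were measured, the difference was -0.46 (log2). Over the 3 ages it was -2.11 ± 0.72 (log2, ± SE, n = 3 per genotype; limma adjusted p = 0.200), and it was -1.17 without the 5-week pair (adjusted p = 0.254).

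Cd163 encodes the haemoglobin scavenger receptor of tissue-resident macrophages. It read 0.881, 0.732 and 0.524% in the null arrays, against 19.6, 0.624 and 0.796% in the wild-type arrays. The wild-type array of 5 weeks was the only one well above background. At that age Cd163 was lower in null by at least 4.64-fold. No fold can be given at 10 or 50 weeks, and the gene was not tested.

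Mrc1 encodes CD206, the mannose receptor of resident and alternatively activated macrophages. It read 16.1, 11.9 and 7.33% in the null arrays, against 7.82, 12.2 and 5.06% in the wild-type arrays. The genotypes overlapped, with null higher at 5 and 50 weeks and the arrays of 10 weeks nearly equal. The difference was 0.51 ± 0.24 (log2, ± SE, n = 3 per genotype; limma adjusted p = 0.279), with a 95% interval of -0.15 to 1.18. With a normexp background correction it was 0.03, though the offset of 50 added there shrinks the differences of dim probes by construction.

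**Figure D3:**
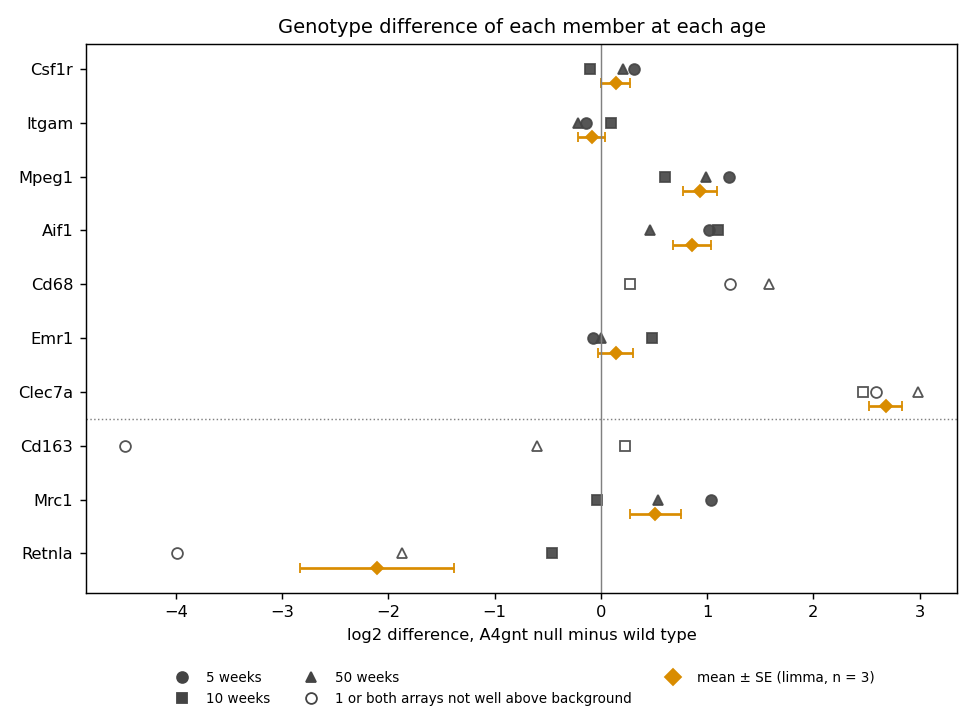
Log2 difference, A4gnt null minus wild type, of each member at 5, 10 and 50 weeks (circle, square, triangle; open where 1 or both arrays were not well above background), with the mean ± SE from limma (diamond, n = 3 per genotype) for the 8 members tested. The 7 general genes stand above the dotted line and the 3 alternative-activation genes below it; Clec7a is at 2.68 ± 0.15 and Retnla at -2.11 ± 0.72, fitted values that include arrays not well above background.

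Set side by side, the median difference of the 7 general genes over the 3 ages was 0.86 and that of the 3 alternative-activation genes was -1.62 (log2), where all genes tested had a median of -0.03. With Cd68 left out and Clec7a at its bound, the general median was 0.50, and with a normexp background correction it was 0.16. A normexp correction also drew the single genes toward 0, with Clec7a at 0.87, Mpeg1 at 0.50, Aif1 at 0.51 and Retnla at -0.75 (log2). That correction adds an offset of 50 to each signal, which shrinks the differences of dim probes by construction. It is therefore no separate check of their size. The alternative-activation median over the ages was the value of Cd163, which was measured on 1 of 6 arrays. The gap between the medians was 5.00 at 5 weeks, where Retnla set the lower one against a null array not well above background, and 0.52 at 10 weeks, where Mrc1 set it (log2). At 50 weeks the lower median was that of Cd163, which was not measured there, and no gap is given. Over the 3 ages Mrc1 and Retnla lay on opposite sides of 0, so the contrast of the groups describes Retnla and Cd163 and not Mrc1.

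At single ages a 2-fold difference, bounds included, was reached by 6 members at 5 weeks. Mpeg1, Aif1, Clec7a and Mrc1 were higher in the null mouse and Cd163 and Retnla lower, where 4.68% of the genes measured on at least 1 of both arrays were higher and 5.94% lower. At 10 weeks Aif1 and Clec7a were higher (5.15% of genes) and no member lower (6.52%). At 50 weeks Clec7a was higher (2.38% of genes) and Retnla lower (5.56%). Clec7a was thus past 2-fold at every age, which no other member was. With a normexp background correction the counts were 1, 0 and 0 at 5, 10 and 50 weeks. Its added offset shrinks the folds of dim probes by construction, so these lower counts are no separate check.

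No member passed a test of age or of a trend in the genotype difference with age. Between 50 and 5 weeks, 0 members were called, where 0.0112% of all genes were, and at an unadjusted limma p under 0.05 there were 4 of 8 members against 19.1% of genes. Those were Csf1r at -0.51 ± 0.17, Itgam at -0.56 ± 0.15, Emr1 at -0.64 ± 0.20 and Mrc1 at -0.88 ± 0.30 (log2, 50 minus 5 weeks over both genotypes, ± SE; limma adjusted p from 0.227 to 0.247). By its brightest probe, each of these 4 read lower at 50 than at 5 weeks in both genotypes. The dimmest Csf1r probe did not in null, with 7.06% at 5 and 7.49% at 50 weeks, against 6.84 and 6.60% in wild type. The remaining probes of Csf1r, Itgam and Emr1 also read lower at 50 weeks, some of them not well above background on every array. All age values of Itgam given here and below are those of its probe with the CA run. Clec7a, Aif1 and Mpeg1 differed between these ages by 0.19, 0.45 and -0.16 (log2).

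Between 50 and 10 weeks 0 members and 0.0% of genes were called, and Mpeg1 and Mrc1 had an unadjusted limma p under 0.05, at -0.55 ± 0.20 and -0.98 ± 0.30 (log2, ± SE; 6.85% of genes; adjusted p = 0.710 for both). Between 10 and 5 weeks 0 members were called, against 0.0112% of genes, and Itgam had an unadjusted p under 0.05 (12.2% of genes; -0.45 ± 0.15, adjusted p = 0.406). For the trend, 0 members and 0.0% of genes were called, and at an unadjusted p under 0.05 there were 0 members and 2.83% of genes. The steepest slope among the 8 members tested was that of Retnla, 0.42 ± 0.48 (log2 per doubling of age, ± SE). That fit used null signal not well above background at 5 and 50 weeks, and the wild-type mouse of 5 weeks at 66.8%.

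Other genes of monocytes and macrophages were read from a list of 32, of which 25 were tested. None passed, but 15 had an unadjusted limma p under 0.05, all higher in null, against 11.0% of all genes. The median difference of the list was 0.57 (log2), where all genes had -0.03, and 18 of the 25 were higher in null at all 3 ages, against 26.1% of genes. Gpnmb, a glycoprotein of lipid-laden macrophages, was measured above background on the 3 null arrays only, a difference of at least 1.29-fold upward. The Fc receptors Fcgr3 and Fcgr2b were measured on all null arrays and on 1 wild-type array, that of 10 weeks, where they differed by 0.11 and 0.0096 (log2). At 5 weeks they were at least 1.05-fold and 1.66-fold higher in null. Ptprc, the leukocyte antigen CD45, was measured on 4 of 6 arrays. The 5-week null mouse exceeded its wild-type pair by a bound of 3.56-fold, with readings of 15.9% and 1.19%. For the 10-week pair the bound was 1.06-fold in the opposite direction. Ptprc differed by -0.29 at 50 weeks, where both arrays were measured (log2). The counts of this list and of those that follow include such genes, measured in part of the arrays only. Spi1, Cybb, Siglec1, Msr1 and Cd53 were below background on all 6 arrays, as Cd68 was.

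Among 15 growth factors, chemoattractants and their receptors, 11 were tested, with a median of 0.59 (log2), and 5 had an unadjusted limma p under 0.05, all higher in null, against 11.0% of all genes. The monocyte chemoattractant Ccl2 was measured on 1 wild-type array, that of 10 weeks, where it differed by 1.81 (log2). In null Ccl2 was higher by at least 3.30-fold at 5 weeks and by at least 6.01-fold at 50 weeks. Ccl7, another ligand of the same receptor, was also measured above background on the 3 null arrays only, which is at least 2.11-fold higher. Their receptor Ccr2 and the cytokines Il4, Il13 and Csf2 were below background on all 6 arrays. Il4ra, the chain that receives interleukins 4 and 13, differed by 0.96 ± 0.27 (adjusted p = 0.176), and Csf2rb, the shared chain of the Csf2 receptor, by 0.96 ± 0.32 (log2, ± SE; limma adjusted p = 0.194).

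Of 17 further alternative-activation genes 8 were tested, with a median of 0.12 (log2) and 1 in each direction at an unadjusted limma p under 0.05 (11.0% of all genes higher, 12.6% lower). The higher one was Ccl17. The lower one was Lyve1, at -0.35 ± 0.12 (log2, ± SE, limma adjusted p = 0.204), which read lower in null at all 3 ages. Ccl17, a T cell chemoattractant, differed by 1.44 ± 0.21 (log2, ± SE; adjusted p = 0.126) and read 9.97, 10.0 and 17.2% in null, against 5.11, 3.50 and 4.78% in wild type. Tgm2, a transglutaminase, differed by 0.81 ± 0.34 (log2, ± SE; limma adjusted p = 0.248). Arg1, which breaks down arginine, was at least 1.39-fold higher in null at 5 weeks and differed by -2.44 and -0.29 at 10 and 50 weeks (log2). The chitinase-like gene Chi3l4 was at least 3.46-fold and 1.78-fold lower in null at 5 and 10 weeks. It was higher in the null mouse of 50 weeks, by at least 1.92-fold. The list, like the 3 members, had values on both sides of 0.

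Inflammatory macrophage genes gave 6 tested of 15, with a median of 0.47 (log2), 3 higher and 1 lower at an unadjusted limma p under 0.05 (11.0% of all genes higher, 12.6% lower). Ptgs2, the inducible cyclooxygenase, was higher in null by at least 6.65-fold (5 weeks) and by at least 8.02-fold (50 weeks), and differed by 2.16 at 10 weeks (log2), where both arrays were measured. The cytokine Il1b differed by 2.96 and 1.06 at 5 and 10 weeks (log2) and was at least 15.6-fold higher in null at 50 weeks. The signalling inhibitor Socs3 differed by 0.93 ± 0.29 (log2, ± SE; limma adjusted p = 0.187). The chemokine Cxcl10 differed by -1.35 and -0.23 at 5 and 50 weeks (log2), and was lower in null by at least 3.50-fold at 10 weeks. Of 11 C-type lectin receptors and signalling partners other than Clec7a, 8 were tested, with a median of 0.19 and 1 higher at an unadjusted p under 0.05, against 11.0% of all genes. That gene, Clec4n (dectin-2), read 65.4, 53.4 and 39.4% in null, against 17.3, 31.2 and 17.0% in wild type, a difference of 1.30 ± 0.26 (log2, ± SE; limma adjusted p = 0.142). Clec4d, a related receptor, differed by 2.02 and -0.36 at 5 and 10 weeks (log2), and was at least 2.39-fold higher in null at 50 weeks. Clec2d differed by -0.37 ± 0.24 over the 3 ages (log2, ± SE). Clec4a2 was at least 2.49-fold lower in null at 5 weeks, and differed by 1.02 and -0.63 at 10 and 50 weeks (log2).

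Retnla's relatives were mixed. Retnlg was higher in null at all 3 ages, by 1.41 ± 0.31 (log2, ± SE; limma adjusted p = 0.147). Retnlb was at least 1.71-fold higher in null at 10 weeks and differed by -0.65 at 50 weeks (log2). Retn, the resistin gene, was well above background on 2 arrays, both wild type, and was lower in null by at least 1.32-fold (5 weeks) and by at least 1.03-fold (10 weeks).

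**Figure D4:**
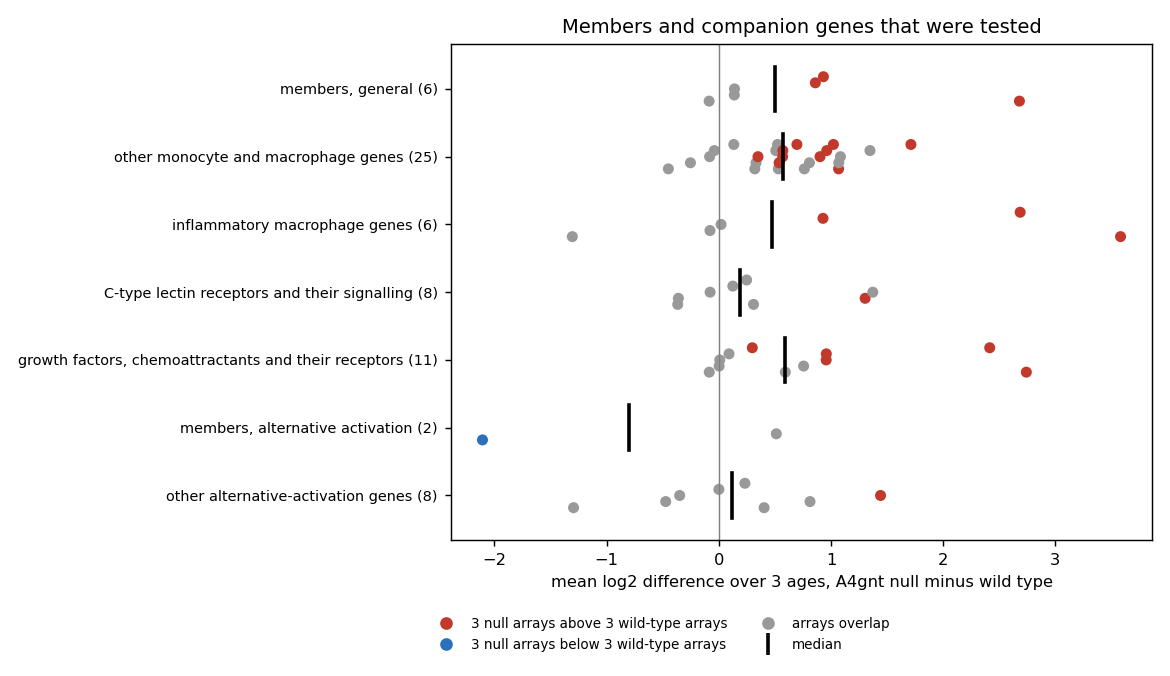
Mean log2 difference over the 3 ages, A4gnt null minus wild type, of each tested gene in the member groups and 5 further lists (tested genes in brackets, black bar at the median); red genes had all 3 null arrays above all 3 wild-type arrays, blue genes the opposite. The 25 further monocyte and macrophage genes have their median at 0.57, and Retnla is the blue point at -2.11; differences of genes not measured on every array include signal not well above background.

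Markers of other cells were read beside these values. Neutrophil markers, 7 tested of 10, had a median of 0.51 (log2), and S100a8 and S100a9 differed by 2.29 ± 0.79 and 1.57 ± 0.55 (log2, ± SE). Ltf differed by 0.26 and 4.85 at 10 and 50 weeks, and Ly6g, which marks neutrophils more narrowly, by -0.86 at 10 weeks, the age at which both its arrays were measured (log2). Csf3r, Elane and Camp went the other way, at -0.27 ± 0.22, -0.31 ± 0.15 and -0.39 ± 0.16 (log2, ± SE), with Camp well above background on 1 null array. The summed signal of the list was 4288 to 4894% in null and 4169 to 7021% in wild type, of which Csf3r made up most. Without Csf3r, left out after its values were seen, the sum was 966, 533 and 916% in the null arrays of 5, 10 and 50 weeks, against 320, 503 and 297% in the wild-type arrays. Mpo, Ngp and Cxcr2 were below background on all arrays. Mast cell markers, 5 tested of 7, had a median of 1.61 and summed to 295 to 968% in null and 108 to 346% in wild type, with the proteases Mcpt2, Mcpt4 and Mcpt1 at 1.86 ± 0.14, 1.66 ± 0.25 and 1.61 ± 0.35, and Cpa3 and Tpsb2 at -0.18 ± 0.31 and -0.36 ± 0.52 (log2, ± SE; limma adjusted p from 0.0967 to 0.740). Dendritic cell markers, 3 tested of 7, had a median of 0.63, and Itgax differed by 1.67 and 1.16 at 10 and 50 weeks (log2). Zbtb46, measured on 3 of 6 arrays, read 5.48, 2.95 and 3.74% in null, against 2.95, 4.59 and 3.40% in wild type. Flt3, Xcr1 and Cd209a were below background on all 6 arrays. The part of these other cells in the higher values of Clec7a, Mpeg1 and Aif1 was not tested.

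The wild-type array of 5 weeks, on which Retnla and Cd163 were high, was then described further. Vsig4, a complement receptor of resident macrophages, and Folr2, a folate receptor of the same cells, were also well above background on that array alone. Both were singled out after their values were seen. Vsig4 read 2.64, 0.737 and 0.896% in the null arrays, against 5.73, 2.04 and 1.04% in the wild-type arrays. Folr2 read 0.860, 1.38 and 0.510% in the null arrays, against 5.14, 1.86 and 0.787% in the wild-type arrays. Other genes of resident macrophages went both ways at 5 weeks. Stab1 read 38.1% in null and 31.1% in wild type, and C1qa 22.0% in null and 16.9% in wild type. C1qb read 24.9% in null and 19.2% in wild type, and Mrc1 was higher in null as given above. Marco read 36.9% in null and 65.9% in wild type, and Lyve1 9.03% in null and 11.5% in wild type. Mertk was at least 1.56-fold lower in null. Over all genes, 195 of 31689 (0.615%) were well above background on that array alone.

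Fat cell markers moved partly with it. Cfd, the complement factor adipsin, read 2.91, 1.82 and 0.610% in the null arrays, against 48.8, 2.83 and 62.9% in the wild-type arrays. Adipoq, the hormone adiponectin, read 1.08, 0.889 and 0.595% in the null arrays, against 5.66, 0.762 and 7.38% in the wild-type arrays. Both genes thus read highest in wild type at 5 and at 50 weeks, although Adipoq was well above background at 50 weeks only, whereas Retnla and Cd163 were highest in wild type at 5 weeks. Cfd and Adipoq were picked after their values were seen. The whole list of 6 fat cell markers summed to 1472 to 3369% in null and 1651 to 3164% in wild type, nearly all of it from Fabp4 and Cidec. The other 4 summed to 6.40, 6.21 and 3.15% in the null arrays of 5, 10 and 50 weeks, against 56.9, 6.65 and 75.2% in the wild-type arrays, and Plin1 and Lep were below background on all arrays. The part of fat in the Retnla and Cd163 values was not tested.

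**Figure D5:**
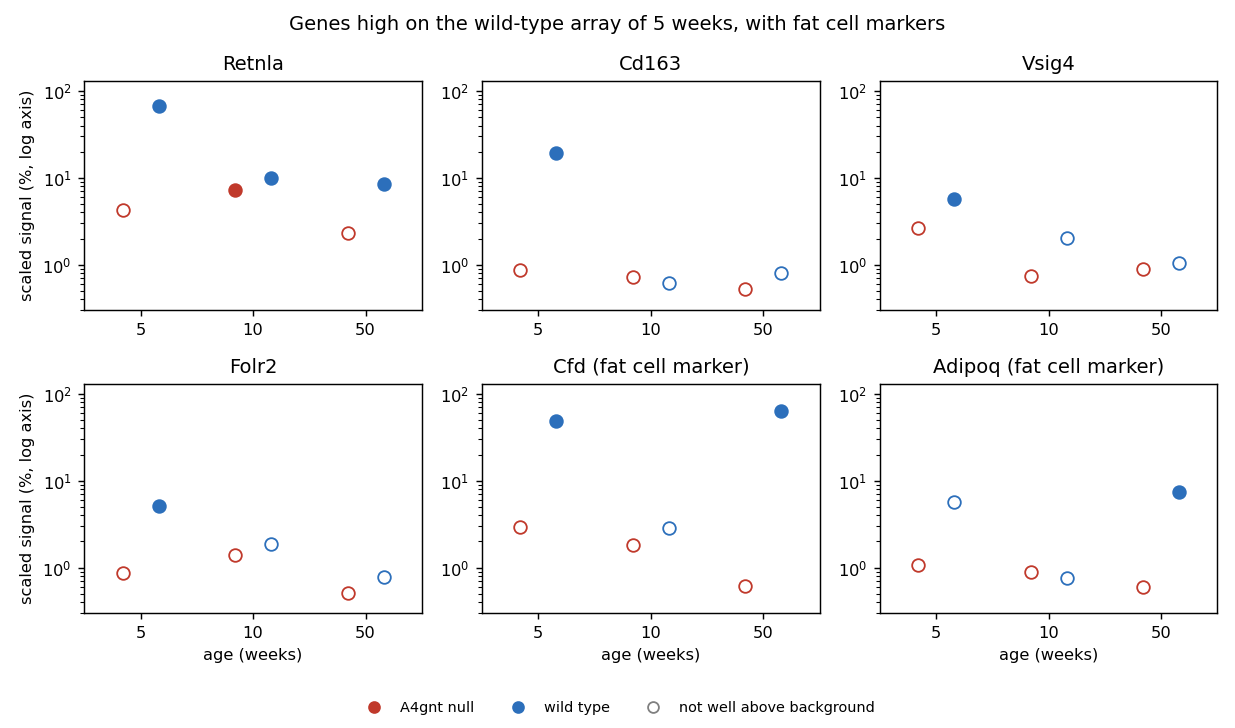
Scaled signal (percent of the array's 75th percentile, log axis) by age in weeks of Retnla, Cd163, Vsig4 and Folr2 and of the fat cell markers Cfd and Adipoq, with A4gnt null in red left of wild type in blue; open circles were not well above background. The wild-type array of 5 weeks is the highest in the first 4 panels, at 66.8% for Retnla and 19.6% for Cd163, while Cfd and Adipoq are high in wild type at 5 and 50 weeks.

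The promoters were searched on both strands for short motifs of PU.1 (GAGGAAGT), the macrophage lineage factor, of STAT6 (TTC, any 4 bases, GAA), which carries the interleukin 4 signal, and of C/EBP (TTGCNNAA). RefSeq windows of 300 bases around the transcription start (GRCm38.p6) were at hand for 8 members. Among 32851 windows of all genes, 3.20% held the PU.1 motif, 6.95% the STAT6 motif and 10.8% the C/EBP motif. Retnla held all 3, as 14 windows in all did (0.0426%). Its window, chr16:48842359-48842658 on the plus strand, is printed because Retnla is the member that went furthest down, with the matches in capitals in the order PU.1, STAT6 and C/EBP. They begin at -198, -145 and -134 from the start and do not overlap.
Retnla promoter: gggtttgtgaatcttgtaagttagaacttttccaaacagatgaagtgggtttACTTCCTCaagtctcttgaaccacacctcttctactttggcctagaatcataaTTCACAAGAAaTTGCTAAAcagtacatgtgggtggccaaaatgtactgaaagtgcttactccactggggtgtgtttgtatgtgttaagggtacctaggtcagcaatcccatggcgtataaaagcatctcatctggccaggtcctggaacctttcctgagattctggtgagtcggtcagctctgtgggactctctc

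Clec7a, the member that went furthest up, held 1 STAT6 motif, TTCTTCAGAA at -131 in its window chr6:129472730-129473029 on the minus strand. Cd68 held 1 C/EBP motif, and the windows of Aif1, Cd163, Itgam, Mpeg1 and Mrc1 held none of the motifs. A match describes the letters of the window and is not evidence of binding.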

How the data were processed

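Total RNA of gastric mucosa was labelled with Cy3, per the labels. Per the file headers, the spot intensity and its background-subtracted processed signal were written by Agilent Feature Extraction 10.7.1.1. A second deposited table holds log2 values for these arrays and served as an alternative. The log2 processed signal was scaled to each array's 75th percentile (252.8 to 402.8 units). Flagged spots (98 to 144 of 43020 per array) were dropped, replicate spots averaged, and 0 spots were saturated. Probe names came from the array, updated through a RefSeq gene table (26044 probes by accession, 3194 by symbol, 930 by synonym; 9231 kept the array's name). A gene was read by its brightest probe and tested if well above background on at least 3 of 6 arrays, using R 4.3.3 and limma 3.58.1, where the model held genotype and age. The labels give 1 mouse per genotype and age, so age pairs the arrays. The number of arrays limits the precision. The p-values of genotype and of age rest on how the null minus wild-type difference varied over the 3 ages, moderated over all genes tested. In that variation, differences between mice and a change of the genotype difference with age cannot be told apart. The scanner's error estimate was about 10.0% for the brightest member spots and near 100.0% for the dimmest. Where a genotype was not well above background, a fold is a bound set by the lowest signal called well above background, or the probe's own signal if higher.

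The members, lists and tests were chosen with earlier results of these data known. All members were named. From each list of macrophage and related genes, and of neutrophil and mast cell markers, the up to 4 tested genes that differed most between genotypes were named. Gland and smooth muscle markers are given as whole lists, and of the tested dendritic cell markers Itgax and Zbtb46 are named. Of the marker lists of other cells, those bearing on a member's value are described. The alternatives were a normexp background correction (offset 50), quantile and median scaling, the deposited table, other filters and probe choices, no age term, a variance trend and leaving out each age pair. The fit was first run on data simulated with independent noise and no slide effect, so that run does not bear on slide and genotype coinciding here.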

Additional observations from a re-analysis of the deposited data

How the results depend on the processing

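Each result was recomputed under the alternatives. Of the summary results, 109 values stayed and 10 moved. The medians that stayed lay within their spread over the ages of the main value. That margin was wide for the alternative-activation median (main -1.62, SD 2.13) and for the gap between the medians (main 2.48, SD 2.44). Without the 5-week pair they were -0.19 and 0.97, with Cd163, then measured on no array, setting the lower median. With a normexp background correction they were -0.47 and 0.63 (log2). Their staying is therefore no check of the contrast. The counts that stayed were equal or close in ratio, and many were 0 in both. Of the single members' differences, 127 stayed, 5 reversed, 3 passed the threshold and 1 moved. With a normexp background correction 1 member, Clec7a, was called (main 0), the general median was 0.16 (main 0.86), the Cd68 difference 0.07 (main 1.03), the Emr1 difference -0.003447, and the 2-fold counts at 5, 10 and 50 weeks were 1, 0 and 0 (main 6, 2 and 2). Clec7a was also called, as 1 member, with the fit that has no replicate block (no age term, limma adjusted p = 0.0214) and with a variance trend; the age pairing changed no other call. With all 6 arrays required to be well above background, 2 members had an unadjusted limma p under 0.05 and 2 did not overlap (main 4 and 4), because Clec7a and Retnla were no longer tested. With Cd68 left out and Clec7a at its bound, the general median was 0.50. The Emr1 difference was -0.0257 as the mean of its probes and -0.19 with its dimmest measured probe. Over the 3 fits without 1 age pair each, Emr1 lay between -0.0327 and 0.245. Itgam was 0.0405 with median scaling, which moves the median of all genes from -0.03 to 0.10. Over all genes, normexp called 107 higher and 91 lower, the variance trend 28 and 13, no age term 4 and 2, quantile normalization 0 and 1, and the others none. The offset of 50 in the normexp correction shrinks the differences of dim probes by construction, and beyond that the causes were not tested.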
